A study of Rattus norvegicus with 8 samples.

Results

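The levels of 9 genes known for axon growth and regeneration were compared in the dentate gyrus (DG) of ovariectomized female rats after kainic acid seizures, with and without estradiol (E2) replacement. The genes are Sprr1al, Gap43, Basp1, Marcks, Marcksl1 and the stathmin family genes Stmn1, Stmn2, Stmn3 and Stmn4. A gene was taken as measured where a non-control spot of the array carries its name, and the 9 genes have 20 of the 43379 non-control spots and 11 of the 41012 probes. All 9 were quantified, among 21332 of 35199 gene names on the array that had at least 1 spot above background in every rat. The genes were chosen on measured values of this same contrast, their levels with and without E2 in earlier results of these data. Their differences between the groups, and any calls of these genes below, are therefore a description and no test.

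Total RNA of the whole DG was hybridized to 4 2-color arrays on a single slide, with 1 rat in each channel. All 8 rats were adult female Sprague-Dawley rats weighing 150 to 200 g, all were ovariectomized, and all went through status epilepticus (SE) induced with kainic acid at 16 mg/kg. The 4 COS rats (castrated, oil, SE) were injected with oil, and the 4 CES rats (castrated, E2-replaced, SE) received 4 doses of 2 µg of estradiol at intervals of 24 h, of which 2 came before SE and 2 after it, while SE was stopped by pentobarbital after 5 h. These doses are those of the sample records. The methods of the study instead place every injection before SE, name another kainic acid dose and end SE with diazepam, and its paragraphs differ on when tissue was collected, so the time of collection after SE is not settled. Each array held rats of 1 group, with replicates 1 and 3 in Cy3 and replicates 2 and 4 in Cy5. Rats without SE were not analysed here, so the values compare E2 with oil after SE only. Such a model replaces a single hormone in rats without ovaries.

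Axon growth needs a growth cone, in which membrane-bound phosphoproteins handle actin and small proteins of the stathmin family control how much tubulin is free to build microtubules. GAP-43, BASP1 (also called CAP-23), MARCKS and the MARCKS-like protein bind the inner face of the plasma membrane, and protein kinase C and calmodulin act on them. Stathmins bind tubulin and favor microtubule turnover until kinases inactivate them. SPRR1A, a precursor of the cornified envelope of skin, is known in the nervous system as a protein that injured peripheral neurons switch on while they regrow. In the DG, granule cells send mossy fiber axons to CA3, and these axons can sprout after SE.

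Between 70.7% and 88.9% of the non-control spots of a channel had a signal at least 2 times the local background, with 32381 to 38553 such spots in the COS rats and 30690 to 35352 in the CES rats, and no spot was saturated. A log2 level below is the log2 of the background-subtracted signal relative to the median valid spot of the same channel, averaged over a gene's spots. Differences are CES minus COS on this scale, with the standard error from a limma model of all genes, in which a gene was called when its Benjamini-Hochberg adjusted p was under 0.05. Over all 21332 genes the median difference was -0.25 and the model called 1238 genes higher and 6038 lower in CES, which became 3042 higher and 1892 lower when the arrays were normalized by loess. Signs of small differences therefore depend on the scaling, and each difference is also set against that of the median gene. CES replicate 2 stood apart from the other CES rats in several of the genes below and is named where it does. Of the markers of granule neurons, Prox1 and Lct were not well above background in any of the 8 rats. Dsp and Rfx3 were well above background in 5 rats each, and Calb1, C1ql2 and Neurod1 in all 8.

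Of the 9 genes, 4 were higher and 5 lower in CES, with a median difference of -0.19, which lies 0.06 above the median of all genes. The model called Stmn2 higher and Sprr1al and Marcksl1 lower. Over all genes it called 5.8% higher and 28.3% lower, or 34.1% in either direction. The same 3 genes were those whose COS and CES rats did not overlap: the lowest CES rat exceeded the highest COS rat for Stmn2, and the highest CES rat lay below the lowest COS rat for Sprr1al and Marcksl1. Among all genes 1.61% did so upward and 19.8% downward. Since this contrast was in view when the genes were picked, nothing is read from these shares. Loess, quantile normalization, scaling on the spots valid in all rats and the deposited log2 table each left 7 of the 9 genes higher and 2 lower in CES, the 2 being Sprr1al and Marcksl1.

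**Figure D1:**
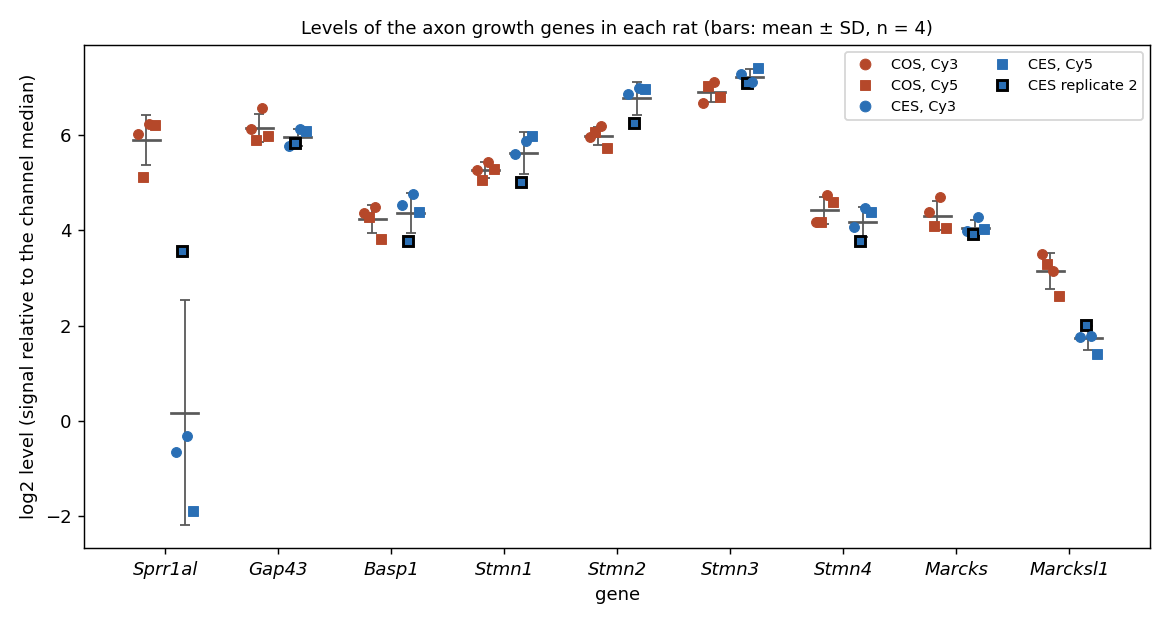
The vertical axis gives the log2 level of each of the 9 genes in each of the 8 rats, red for COS and blue for CES, with circles for Cy3, squares for Cy5, bars for mean ± SD of 4 rats and a black outline for CES replicate 2. Sprr1al lies between 5.11 and 6.23 in COS and between -1.90 and 3.56 in CES, Marcksl1 is lower in every CES rat, and the groups of Gap43, Basp1, Stmn1, Stmn3, Stmn4 and Marcks overlap. Levels of different genes come from different probes and are not comparable with each other.

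Sprr1al had the widest difference of the 9 genes. The array calls it Cornifin-A, and RefSeq lists Sprr1al as an older name of Sprr1a, so the gene is the small proline-rich protein SPRR1A. Its single probe lies at chr2:185464443-185464502 on the minus strand of rn4 and begins at base 250 of its transcript. The probe is shown because it reads a repeat, the feature that gives SPRR proteins their proline-rich center, with the first copy of the 24-base unit in capitals.
Sprr1al: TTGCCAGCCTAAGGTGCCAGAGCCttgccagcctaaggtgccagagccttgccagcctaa
The 24 bases make 8 codons, and the probe holds 2 whole copies and 12 bases of a further one. No other gene name on the array has a probe that shares a run of 12 or more bases with it. Whole transcripts were not searched.

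The Sprr1al log2 level was 6.02, 5.11, 6.23 and 6.20 in COS replicates 1 to 4, and -0.65, 3.56, -0.32 and -1.90 in CES replicates 1 to 4. All 4 CES rats were below all 4 COS rats, and CES replicate 2 sat between the other CES rats and the COS rats. The COS rats averaged 5.89 ± 0.53 (SD, n = 4), and the CES rats averaged 0.17 ± 2.36 (SD, n = 4). The difference was -5.72 with a standard error of 0.94, or -5.46 relative to all genes, which makes the level in COS 52.6-fold that in CES. The signal over background was 340 to 1356 in COS, and in CES it was 190 in replicate 2 and 4.49, 5.43 and 4.69 in replicates 1, 3 and 4. The spot was thus well above background in every rat, also where it was dim. CES replicates 1 and 2 were hybridized to the same array. Only 0.0047% of all genes had a more negative difference. Without CES replicate 2 the difference was -6.99, and over all 21 alternative analyses it lay between -6.99 and -4.67. The call was lost with the methods' t-test and with no other alternative. In whole tissue, fewer cells that carry a transcript and less transcript per cell cannot be told apart, here or for any gene below.

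SPRR1A sits in the cornified envelope of keratinocytes beside involucrin and other substrates of transglutaminases, so the genes of that envelope were read in the same rats. Of 9 genes on that list, 5 were found on the array by name. Sprr3, Ivl and Tgm3 were not well above background in any rat. The array also has a probe named Sprr1b, a name that RefSeq lists as a further synonym of Sprr1a, so it may read the same gene as the Sprr1al probe. It was well above background in 2 COS rats and no CES rat and was not quantified. Tgm1, which crosslinks envelope proteins, was the 1 gene quantified: it was lower in CES by a log2 difference of -2.48 ± 0.36 (standard error; limma adjusted p = 0.00375), although only 1 CES rat had it well above background, against 4 COS rats. With normexp background correction its difference was -1.002 and was not called (limma adjusted p = 0.126), and at 3 times background the gene was not tested. Among keratinocyte markers, Krt14 was called lower in CES, Krt5 and Krt1 were not called, and Krt10 and Ivl were not well above background in any rat. The summed log2 level of the 3 quantified keratins ran from 0.74 to 1.82 in COS and from -0.22 to 0.89 in CES. Their part in the Sprr1al difference was not tested.

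Of the membrane-bound phosphoproteins of the growth cone, only Marcksl1 was called. Gap43, whose product marks growing axon tips, is read by 1 probe at chr11:60083891-60083950 on the plus strand of rn4, spotted 10 times on each array. Its log2 level was 6.13, 5.89, 6.57 and 5.98 in the COS rats and 5.76, 5.83, 6.12 and 6.09 in the CES rats. The groups overlapped, with COS replicate 3 the highest of the 8 rats and CES replicate 1 the lowest. The difference was -0.19 ± 0.19 (standard error), or 0.06 relative to all genes, and the gene was not called in any of the 21 alternatives, over which the difference ran from -0.30 to 0.21. The 10 spots allow the error of a spot to be seen apart from that of a rat. Within a rat the spots had an SD between 0.14 and 0.26 on the log2 scale, and the 220 probes of the array with 5 or more spots had a median of 0.24. Of the 10 spots, 9 gave a negative difference, from -0.63 to 0.01 over all 10. These spots share the rats and the probe and are not replicates.

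**Figure D2:**
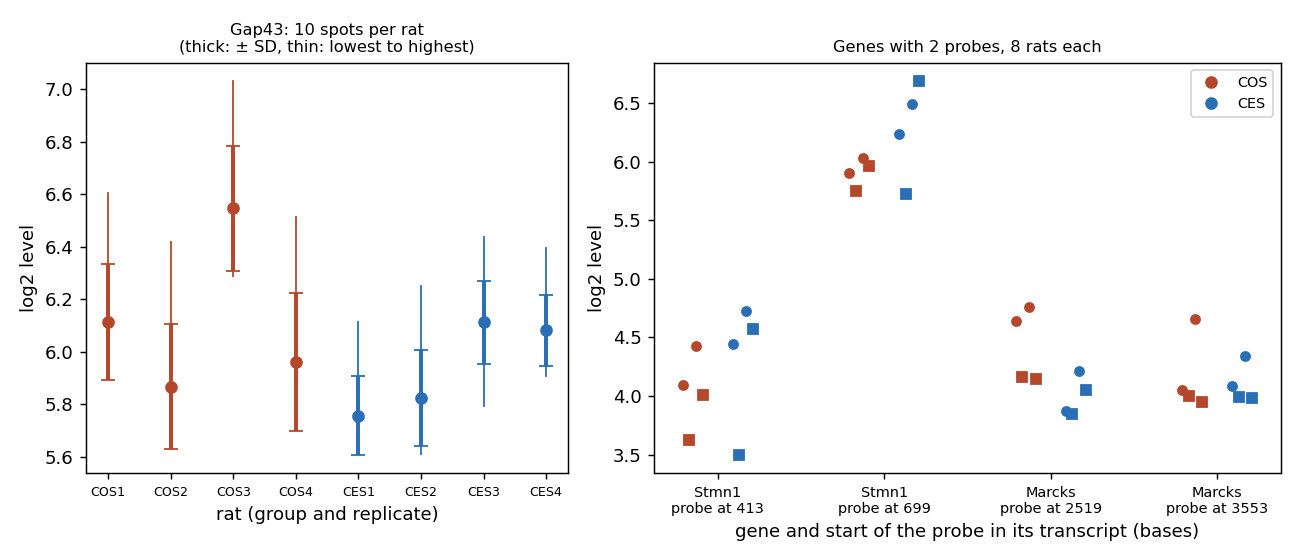
The left panel gives the log2 level of the 10 Gap43 spots in each rat, with the mean as a point, the SD between spots as a thick bar and the lowest and highest spot as a thin line. The right panel gives the log2 level at each probe of Stmn1 and Marcks, the 2 genes with 2 probes, in red for COS and blue for CES, with circles for Cy3 and squares for Cy5, and the groups overlap at each of the 4 probes.

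Basp1 encodes a myristoylated protein with a role close to that of GAP-43. Its probe spans an intron, from chr2:76878396-76927536 on the minus strand of rn4, and so reads spliced RNA. The log2 level was 4.35, 4.28, 4.49 and 3.81 in COS and 4.53, 3.78, 4.77 and 4.37 in CES. The CES range took in the whole COS range, since COS replicate 4 and CES replicate 2 were both low. The difference was 0.13 ± 0.19 (standard error), or 0.38 relative to all genes, and it was not called. Without CES replicate 4 it was -0.0093.

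Marcks and Marcksl1 encode a pair of related substrates of protein kinase C. Marcks has 2 probes on the minus strand of rn4, at chr20:41304974-41305033 and chr20:41306008-41306067. Its log2 level over both was 4.37, 4.08, 4.71 and 4.05 in COS and 3.98, 3.92, 4.28 and 4.02 in CES. The groups overlapped, and the CES rats lay toward the low end of the COS rats. The difference was -0.25 ± 0.17 (standard error), which equals the median of all genes to 2 decimals, and the gene was not called in any alternative. The probe nearer the 3′ end of the transcript gave -0.06 ± 0.18, and the other gave -0.43 ± 0.17, each with its standard error.

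Marcksl1 was lower in every CES rat. Its probe lies at chr5:148671262-148671321 on the plus strand of rn4, and is shown because it reads the lysine-rich stretch by which proteins of this family hold membrane, actin and calmodulin. Capitals mark the codons AAA and AAG, which encode lysine, in the frame that begins at the first base.
Marcksl1: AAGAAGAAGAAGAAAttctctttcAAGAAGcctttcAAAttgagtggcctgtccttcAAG
Of its 20 codons, 9 are lysine codons. The longest run it shares with a probe of another gene name is 14 bases. Only probes of the array were searched, not whole transcripts, so whether it also reads Marcks was not tested. Marcksl1 had a log2 level of 3.49, 3.30, 3.15 and 2.61 in COS and 1.77, 2.01, 1.78 and 1.41 in CES. The lowest COS rat was above the highest CES rat. The COS rats averaged 3.14 ± 0.38 (SD, n = 4), and the CES rats averaged 1.74 ± 0.25 (SD, n = 4). The difference was -1.40 with a standard error of 0.21, or -1.14 relative to all genes, and over the alternatives it lay between -1.55 and -0.998. It lost its call with the methods' t-test alone. A more negative difference was found for 4.87% of all genes.

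**Figure D3:**
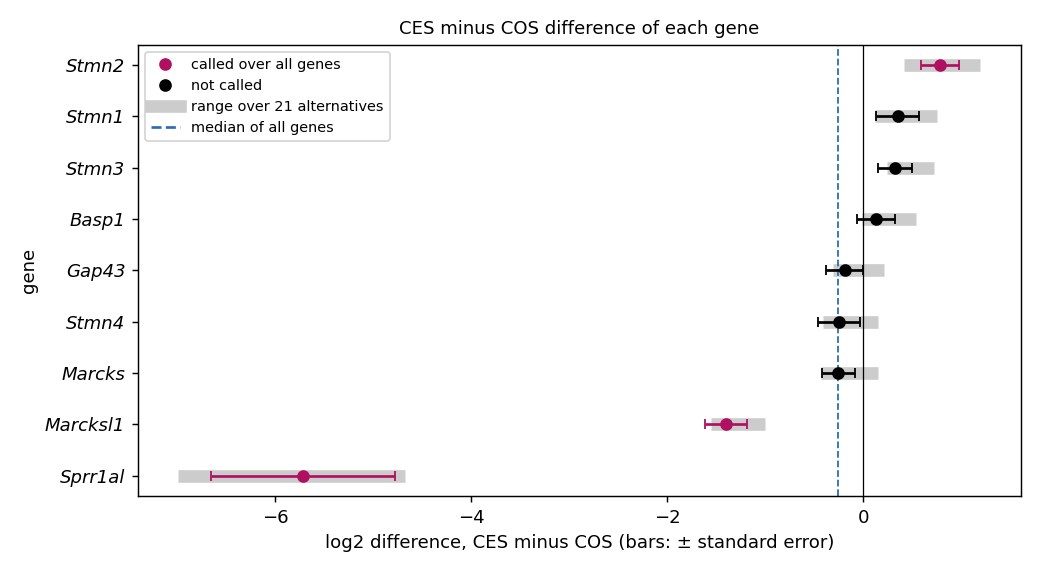
The horizontal axis gives the log2 difference, CES minus COS, of each of the 9 genes, as a point with its standard error, in magenta where the model of all genes called it, with a gray band for the range over 21 alternative analyses and a dashed line at the median of all genes, -0.25. Sprr1al and Marcksl1 reach no higher than -4.67 and -0.998 and Stmn2 no lower than 0.42 in any alternative, while the bands of Gap43, Basp1, Stmn4 and Marcks cross 0.

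The 4 stathmins spread from -0.25 to 0.79. Stmn1 encodes the soluble stathmin, and Stmn2, Stmn3 and Stmn4 encode the neuronal forms SCG10, SCLIP and RB3, which carry a membrane anchor. A stretch that binds tubulin is common to the family, so a probe for it could in principle read a relative. The probes of Stmn1 and Stmn4 that cover a shared stretch are shown for that reason, with the 27 aligned bases in capitals.
Stmn1: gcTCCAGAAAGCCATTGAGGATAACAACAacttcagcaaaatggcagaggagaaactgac
Stmn4: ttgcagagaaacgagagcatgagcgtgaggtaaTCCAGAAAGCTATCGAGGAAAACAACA
Of these 27 bases, 24 are identical. The Stmn1 probe lies at chr5:153231119-153231178 and the Stmn4 probe at chr15:45794278-45794337, both on the plus strand of rn4. Stmn1 has a further probe at chr5:153231731-153231789, and Stmn2 and Stmn3 are read by probes on the minus strand at chr2:95285271-95285330 and chr3:170447030-170447089.

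Stmn2, whose product is concentrated in growth cones and is used as a marker of regrowing axons, had the largest positive difference of the 9 genes. Its log2 level was 5.95, 6.06, 6.18 and 5.72 in COS and 6.85, 6.25, 6.99 and 6.96 in CES. The groups did not overlap, but CES replicate 2 lay only just above COS replicate 3. The COS rats averaged 5.98 ± 0.20 (SD, n = 4), and the CES rats averaged 6.76 ± 0.34 (SD, n = 4). The difference was 0.79 ± 0.19 (standard error), or 1.04 relative to all genes, a level in CES of 1.72-fold that in COS. It was positive in all 21 alternatives, from 0.42 to 1.19, and the call was lost in 8 of them, 4 of which left out COS replicate 1, 3 or 4 or CES replicate 1 and gave 0.72, 0.83, 0.73 and 0.78. Without CES replicate 2 the difference was 0.94.

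Stmn3 had a log2 level of 6.67, 7.02, 7.10 and 6.79 in COS and 7.27, 7.09, 7.10 and 7.41 in CES. The groups met near the top of the COS range, where COS replicate 3, CES replicate 2 and CES replicate 3 lay close together. The difference was 0.32 ± 0.17 (standard error), or 0.58 relative to all genes, and it was not called. This depends on the scaling, since loess, quantile normalization, scaling on the spots valid in all rats and the deposited log2 table each called Stmn3 higher, with differences of 0.68, 0.68, 0.72 and 0.70. Taken relative to the median gene of each rat, its level was 5.51 to 6.18 in COS and 6.21 to 7.05 in CES, and the groups no longer overlapped.

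Stmn1 had a log2 level of 5.26, 5.05, 5.44 and 5.29 in COS and 5.60, 5.00, 5.86 and 5.98 in CES. Of the CES rats, 3 were above all COS rats and CES replicate 2 was below them all. The difference was 0.35 ± 0.22 (standard error), or 0.61 relative to all genes. Its probes gave 0.37 ± 0.22 and 0.27 ± 0.24 with their standard errors, so the probe with the stretch shared with Stmn4 differed little from the other. Without CES replicate 2 the difference was 0.56 and was called.

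Stmn4 had a log2 level of 4.16, 4.17, 4.73 and 4.59 in COS and 4.06, 3.77, 4.46 and 4.37 in CES. The groups overlapped over most of their range. The difference was -0.25 ± 0.22 (standard error), or 0.01 relative to all genes, and it was not called in any alternative, over which it ran from -0.41 to 0.15.

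CES replicate 2 was at an end of the CES range in 8 of the 9 genes. Among the CES rats it had the highest level of Sprr1al and Marcksl1, the genes called lower in CES, and the lowest level of Basp1, Stmn1, Stmn2, Stmn3, Stmn4 and Marcks. It was thus the CES rat nearest to the COS rats for Sprr1al, Marcksl1 and Stmn2, and the one furthest below the COS mean for Stmn4 and Marcks. Its deviation from the CES mean was 3.39 for Sprr1al, 0.27 for Marcksl1, -0.51 for Stmn2, -0.61 for Stmn1 and -0.58 for Basp1. In Gap43 it was the second lowest of the 4 CES rats. Leaving it out raised the genes called higher from 1 to 2 and left the genes called lower at 2.

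Markers of several cell types were called by the same model, which called 5.8% of all genes higher and 28.3% lower. Their counts are given for the main scaling only. Some called markers were dim, such as Fibcd1, well above background in 2 CES rats and no COS rat. Spink8 was well above background in 1 CES rat and 3 COS rats. Of 5 quantified markers of CA1 and CA3 pyramidal neurons, 4 were called higher in CES and 1 lower, and their summed log2 level was 3.79 to 4.52 in COS and 4.39 to 6.11 in CES. Of 5 quantified markers of granule neurons, 1 was called higher and 2 lower, with a summed level of 4.03 to 4.89 in COS and 4.24 to 4.66 in CES. Of 6 markers of inhibitory neurons, Sst and Vip were called lower, and Gad1, Gad2, Slc32a1 and Pvalb were not called. The summed level was 7.68 to 8.45 in COS and 6.41 to 7.42 in CES. Most of that sum was Sst, a neuropeptide gene, which alone was at 7.12 to 8.15 in COS and 5.35 to 6.89 in CES. Of 6 astrocyte markers, 3 were called higher, with a summed level of 6.35 to 6.69 in COS and 6.38 to 7.19 in CES. Of 6 markers of microglia and macrophages, 1 was called higher and 3 lower, with a summed level of 5.08 to 5.68 in COS and 4.64 to 5.14 in CES. Of 5 quantified endothelial markers, 1 was called higher and 3 lower, with a summed level of 4.86 to 5.49 in COS and 4.39 to 5.10 in CES. Of 6 markers of meninges and fibroblasts, 1 was called higher and 1 lower, with a summed level of 6.25 to 8.11 in COS and 6.41 to 7.22 in CES. No oligodendrocyte or choroid plexus marker was called. The part of these cell types in the differences of Stmn2, Marcksl1 and the other genes was not tested.

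Of 14 transcription factors linked to nerve injury and regrowth, 13 were called lower in CES and none higher. Their median difference was -1.69 against -0.25 over all genes, of which 28.3% were called lower and 5.8% higher. This list and those below were chosen with earlier results of these data known, so their counts are a description only. With loess normalization 9 of the 14 factors were called lower and 1 higher, with normexp 8 lower, and with the methods' t-test none. Without COS replicate 3, 6 of these factors and 3 of the other growth cone and regeneration-associated genes were called lower, and no gene of the microtubule, kinase or growth inhibitor lists described below was called in either direction. Atf3, a stress factor that nerve injury induces, had a log2 level of 5.30, 5.85, 5.76 and 5.23 in COS and -0.49, 3.47, -1.11 and -2.09 in CES. Every CES rat was below every COS rat, CES replicate 2 was again the highest of its group, and 3 of the 4 CES rats had the spot well above background. The Atf3 difference was -5.59 ± 0.94 (standard error; limma adjusted p = 0.00446). At 3 times background Atf3 was not tested. For Myc, a growth regulator, the difference was -2.73 ± 0.41 (standard error; limma adjusted p = 0.00390). The list also holds Klf4 and Klf9, both known as brakes on axon growth. Klf4 was among those called lower, at -2.56 ± 0.39 (standard error; limma adjusted p = 0.00395), and Klf9 was the 1 factor not called, at 0.13 ± 0.15 (standard error).

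Other growth cone and regeneration-associated proteins were mixed. Of 20 quantified genes of this list, 2 were called higher and 10 lower, with a median difference of -0.57, with loess 3 were called higher and 6 lower, and with normexp none higher and 4 lower. Over all 21332 genes the model called 5.8% higher and 28.3% lower. With loess 3042 genes were called higher and 1892 lower, and with normexp 125 and 461. The adhesion molecules L1cam and Ncam1 were higher in CES, by 0.72 ± 0.20 (standard error; limma adjusted p = 0.0224) and 0.55 ± 0.17 (standard error; limma adjusted p = 0.0325). Cd44, a receptor for hyaluronan, had a log2 level of 5.41 to 5.92 in COS and of 0.10, 4.32, 0.52 and -0.12 in CES, where replicate 2 was once more the highest. Its difference was -4.42 ± 0.80 (standard error; limma adjusted p = 0.00518). The heat shock protein gene Hspb1 was at 8.04 in CES replicate 2, within the COS range of 7.96 to 8.50, and at 2.46 to 5.46 in the other CES rats, with a difference of -3.38 ± 0.94 (standard error; limma adjusted p = 0.0223) that 12 of 21 alternatives did not call.

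**Figure D4:**
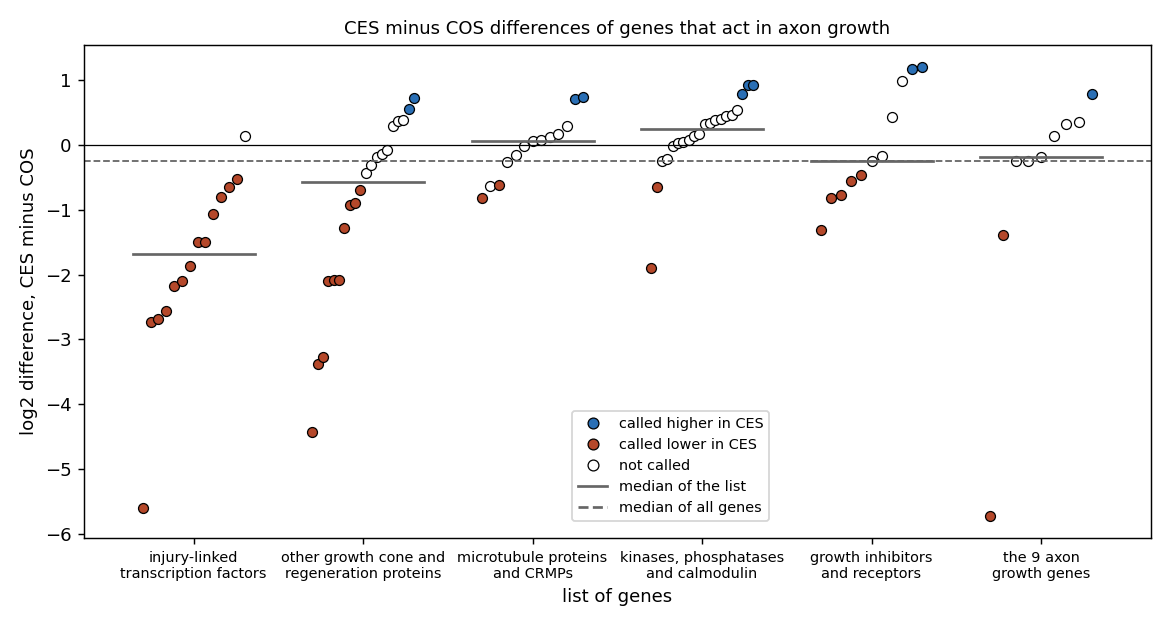
Each point is the log2 difference, CES minus COS, of 1 quantified gene of 5 lists of genes that act in axon growth and of the 9 genes themselves, blue where called higher in CES, red where called lower and white where not called, with a line at the median of each list and a dashed line at the median of all genes. The injury-linked transcription factors have a median of -1.69 and 13 of 14 called lower, and the kinases, phosphatases and calmodulin have a median of 0.24. All lists were chosen with earlier results of these data known.

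Of 13 quantified genes of microtubule proteins and collapsin response mediators, 2 were called higher and 2 lower, and with loess 4 higher and none lower, with a median difference of 0.05. Dcx, a microtubule protein of young neurons, was higher in CES by 0.73 ± 0.19 (standard error; limma adjusted p = 0.0164), and Mapt, which encodes tau, by 0.70 ± 0.20 (standard error; limma adjusted p = 0.0259). The kinesin gene Kif5c was lower, at -0.83 ± 0.16 (standard error; limma adjusted p = 0.00608), as was Dpysl3, which encodes a collapsin response mediator, at -0.62 ± 0.19 (standard error; limma adjusted p = 0.0315), and neither was called with loess. Kinases, phosphatases and calmodulins that act on GAP-43, MARCKS or stathmins counted 3 called higher and 2 lower of 20, and 9 higher and none lower with loess. Over all 21332 genes the model called 5.8% higher and 28.3% lower, and with loess 3042 genes higher and 1892 lower. Camk2a, a calcium-dependent kinase of synapses, was higher in CES by 0.92 ± 0.27 (standard error; limma adjusted p = 0.0256). Prkcd was lower, at -1.90 ± 0.42 (standard error; limma adjusted p = 0.00925), and so was the stathmin kinase gene Mapk8, at -0.66 ± 0.19 (standard error; limma adjusted p = 0.0274), and neither was called with loess.

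Genes that restrain axon growth moved both ways. Of 11 quantified, 2 were called higher and 5 lower, with a median difference of -0.25 that equals that of all genes, and with loess 3 were called higher and 1 lower. Over all 21332 genes the model called 5.8% higher and 28.3% lower, and with loess 3042 genes higher and 1892 lower. Omg, a myelin inhibitor, was at 2.59 to 2.96 in COS and 3.17 to 4.39 in CES, and Rtn4r, the receptor it shares with Nogo, was at 2.44 to 3.26 in COS and 3.03 to 4.53 in CES. The Omg difference was 1.19 ± 0.23 (standard error; limma adjusted p = 0.00580) and the Rtn4r difference 1.17 ± 0.26 (standard error; limma adjusted p = 0.00908). Socs3, a brake on STAT3, was lower in CES, at -1.31 ± 0.22 (standard error; limma adjusted p = 0.00459), with 2 of 4 CES rats well above background. With normexp the Socs3 difference was -0.70 and was not called, and with the processed signal it was -1.88. Rock2, a kinase downstream of RhoA, was also lower, at -0.83 ± 0.22 (standard error; limma adjusted p = 0.0190), and was not called with loess.

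The genes whose levels ran most like each of the 9 over the 8 rats were found by Pearson correlation among 10564 genes that were well above background in all rats. These r values describe 8 rats of 2 groups that share dyes and arrays in pairs, and say nothing of a link between the genes. For Sprr1al they were Cited1, Slc18a3 and Ncf4, with r of 0.996, 0.995 and 0.995. For Stmn2 the first was Dync1i1 at 0.997, followed by C1qtnf4 at 0.995. For Marcksl1 the first was Sod2 at 0.994. Basp1 ran most like Dcaf6 at 0.985 and Marcks most like Mrpl47 at 0.984. The nearest genes lay further off for Stmn3, with Enc1 at 0.940, and for Stmn4, with Mvd at 0.919.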

How the data were processed

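RNA of 8 rats, 4 COS and 4 CES as the sample records group them, was read on 4 2-color arrays. The deposited scanner files, written by Agilent Feature Extraction 10.7.3.1, hold the intensity of each spot and its local background in each channel, before any normalization by the authors. Beside these, the authors gave log2 values per rat, which differ from the log2 of median signal minus background by 1 constant per channel. Mean signals in the files carry few digits, and probe positions are those of the files for rn4. The number of rats, 4 per group, and not a count of reads, limits the precision, and the median standard error of a difference was 0.20. Tissue samples are separate rats by their records.

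Spots counted as valid where their mean signal reached at least 2 times the background median, and the 27642 spots valid in all 8 rats were used, including spots among the 1593 that the software marked as outliers in any channel. The background-subtracted signal was divided by the median of the channel's valid spots, averaged per gene name and taken to log2. CES and COS were compared with limma 3.58.1 in R 4.3.3, two-sided, with dye as a fixed term, array as a random block (statmod 1.5.0, consensus correlation -0.01), Benjamini-Hochberg adjustment over all genes and a threshold of 0.05. Each array lies within 1 group, so only a random block can carry it. The code was tested on simulated data. Python 3.11.15 with pandas 2.3.3, numpy 2.4.6 and matplotlib 3.10.9 read the files and drew the plots.

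The 9 genes and all lists, tests and alternatives were chosen with earlier results of these data known. Named are the 9 genes, of each pathway list at most the 2 called genes with the largest difference in each direction (Klf4, Klf9 and the marker genes named beyond that were chosen after their values were seen), and the genes most alike to each of the 9, up to 3, with an SD over the rats of at least 0.3. A result that this rule would name is not reported here. By accession, 6 of the 9 genes matched RefSeq, and 8 symbols are in its table.

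Same-numbered rats of the groups share a dye in the labels. Their deviations correlated by 0.21 to 0.34, against 0.21 to 0.44 for the other number of the same dye. Once the dye was removed, replicates 1 and 3 both gave -0.06, and replicates 2 and 4 both gave -0.04. Each group has a pair of rats per dye, so values within such a pair are equal by construction. Whether the numbers pair the rats beyond the dye was not tested. Alternatives covered background correction by normexp (offset 50), the software's processed intensity, 3 other normalizations, no filter or 3 times background, the replicate block, models without the dye or without the array, the brightest probe, the methods' t-test, the authors' log2 values, and each rat left out in turn.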

Additional observations from a re-analysis of the deposited data

How the results depend on the processing

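Sprr1al and Marcksl1 were called lower under every alternative but the methods' t-test. The alternatives reuse the same rats, so a kept call describes the processing and adds no support. With p adjusted over all genes, the t-test called none of the 9 genes and, of all genes, 0 higher and 0 lower. Before adjustment 6103 genes had a p under 0.05 (9633 by limma). The methods instead correct for redundant spots of a gene and add a fold-change cut-off per gene, a criterion not applied here. The number of the 9 genes called higher, 1, became 0 with normexp, the processed intensity, no filter and the t-test, and 2 with loess, quantile normalization, scaling on the spots valid in all rats and the deposited table. The number called lower, 2, became 0 with the t-test. Leaving out a rat gave 0 to 2 higher and 2 to 2 lower. Stmn2 lost its call without COS replicate 1, 3 or 4 or CES replicate 1, with differences of 0.72, 0.83, 0.73 and 0.78.

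Over all genes, called higher and lower numbered 1238 and 6038, and 125 and 461 with normexp, 3042 and 1892 with loess, 3055 and 2221 with quantile normalization, 3348 and 1718 with scaling on shared spots, 3275 and 1927 with the deposited table and 404 and 2696 with no filter. At 3 times background 2828 were lower. Leaving out a rat gave 257 to 1855 higher and 914 to 7012 lower, the fewest without COS replicate 3. With the replicate block, which pairs same-numbered rats, 1076 were higher and 6131 lower and no call among the 9 genes changed.

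Signs reversed for genes that were not called. With loess, quantile normalization, shared-spot scaling and the deposited table, Gap43 was at 0.10, 0.080, 0.21 and 0.20, Stmn4 at 0.045, 0.052, 0.15 and 0.12, and Marcks at 0.058, 0.048, 0.15 and 0.11. Those settings move the median of all genes from -0.25 to between 0.06 and 0.15. Basp1 reversed to -0.0093 without CES replicate 4, and the highest value without a rat was 0.27. The cause was not tested. Of 397 values of the pathway genes that the naming rule selects, under the alternatives, 283 kept their direction and call, 114 lost the call and 0 reversed. Dim spots limit the smallest levels, such as Tgm1 in CES.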
